A study of Homo sapiens with 3 samples.

Results

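The transcriptome of A549 cells after *miR-139-3p* transfection was set against that of mock cells, with 1 Agilent array of 1 colour for each. A549 is an established line from a human lung adenocarcinoma. The *miR-139-3p* cells received the miRNA precursor at 10 nM, and the mock cells received transfection reagent only, without any RNA. These are 2 of the 3 arrays of the series, chosen by their labels. The third array held RNA from A549 cells transfected with *miR-139-5p*, also at 10 nM. It was set against the same mock array, and its values are given only side by side. Slide 1 carried mock and *miR-139-5p*, and slide 2 carried *miR-139-3p*. Slide, culture and transfection therefore cannot be told apart. The *miR-139-5p* cells also received RNA, at the same dose. With 1 array per condition no test was possible, so every difference below is one between single arrays.

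MicroRNAs are short RNAs that guide an Argonaute protein to messenger RNAs. Pairing runs mainly through the seed near the 5′ end of the miRNA, and paired mRNAs are less translated and often degraded. The hairpin of *MIR139* is cut into 2 mature strands, and *miR-139-3p*, from its 3′ arm, is by annotation the passenger. Their sequences are shown because the seed, in capitals (bases 2 to 8), sets which mRNAs each strand can pair with. They are from RefSeq on GRCh38.p14, where hsa-miR-139-3p lies at chr11:72615066-72615088 and hsa-miR-139-5p at chr11:72615102-72615124, both on the minus strand.
hsa-miR-139-3p: uGGAGACGcggcccuguuggagu
hsa-miR-139-5p: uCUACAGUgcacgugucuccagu
The seeds of the strands differ. Among the 2370 mature miRNAs of the RefSeq table, 0 others share either seed.

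Signals are given as relative signal, the processed signal in multiples of the 75th percentile of the array, so that a value of 1 equals that percentile. The log2 difference of a gene is its log2 relative signal after *miR-139-3p* minus that in mock, averaged over its probes that were well above background on both arrays. Over 3684 genes with more than 1 such probe, the median SD between probes was 0.28, and the SD is given below for genes described by their probes and wherever it was at least 0.5. Differences after *miR-139-5p*, given for some genes only, used the probes well above background on that array and mock. For some genes these were not the same probes. "Lower" and "higher" below stand for a difference of at least 2-fold. Of 293 genes picked out by rule that were past 2-fold, 129 came under it in at least 1 alternative of the processing, 116 of them with the normexp background correction. Where such a gene is first described, its value nearest to 0 over the alternatives follows its difference. Genes that stayed past 2-fold could still come much nearer to 0, and those values are given for some of them only. Signals of different genes cannot be compared with each other on these arrays. On the mock array 49.9% of spots were well above background and on the *miR-139-3p* array 53.1%. All 5 epithelial markers (*KRT8*, *KRT18*, *KRT19*, *EPCAM* and *CDH1*) were well above background on both arrays, with a summed relative signal of 1086 in mock and 747 after *miR-139-3p*. Of 6 markers of alveolar type 2 cells, 3 were above background on both, and *SFTPA1*, *SFTPB* and *NKX2-1* were not. Of markers of other cell types, 2 of 6 of fibroblasts and 2 of 4 of endothelial cells were above background on each array. Of 5 leukocyte markers 1 was above background in mock and 2 after *miR-139-3p*, of 2 erythroid ones 1 and 0, and of 3 of hepatocytes 2 and 1, where *CD68*, *LYZ* and *HBA1* had no matched probe. The summed signal over the same markers was 0.246 in mock and 0.476 after *miR-139-3p* for endothelial cells, 0.165 and 0.358 for leukocytes, and 0.571 and 0.487 for fibroblasts. Its part in the results was not tested.

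Of 12672 protein-coding genes measured on both arrays, 1659 (13.1%) were at least 2-fold lower and 1111 (8.77%) at least 2-fold higher after *miR-139-3p* transfection, so 40.1% of the genes past the threshold were higher. This split moved with the scaling. The higher share was 52.6% when only probes detected everywhere set the 75th percentile and 23.3% when E1A spike-in RNA set the scale. Over all protein-coding genes, the median difference was -0.15 and the SD 0.85. After *miR-139-5p*, 269 of 12673 genes were lower and 212 higher, with an SD of 0.45. The differences depended on the signal. Among the 2535 dimmest genes the median was 0.22 and 17.95% were higher, and among the 2535 brightest the median was -0.28 and 4.06% were higher. The part of this drift in the results on dim genes was not tested. A further 257 protein-coding genes had only a bound below mock and 622 only a bound above it, since their probes were well above background on 1 of the 2 arrays. The target gene of the study, *TRIP13*, had a relative signal of 3.61 in mock and 0.8296 after *miR-139-3p*, a log2 difference of -2.12 (SD between probes 0.13, n = 2 probes). It and the other genes of the study's table of candidate targets, which were selected on these arrays, are left out of every list and ranking below.

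**Figure D1:**
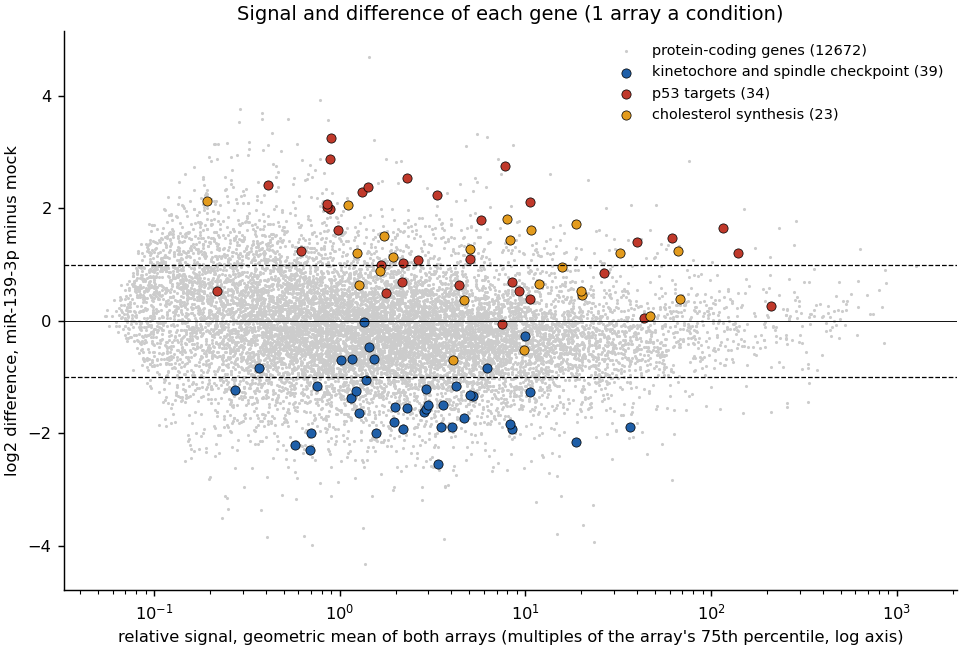
Each point is 1 of the 12672 protein-coding genes. The horizontal axis gives the geometric mean of the relative signal in mock and after *miR-139-3p* (log axis, multiples of the array's 75th percentile) and the vertical axis the log2 difference. Dashed lines mark 2-fold. The 39 kinetochore and spindle checkpoint genes lie below 0, the 34 p53 targets above 0 but for *BAX* at -0.05, whose probes lie on opposite sides, and dim genes spread upwards.

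Genes measured by several probes allow a check within the arrays. Of 3317 such genes outside the study's table, 209 were lower on every probe and 88 were higher on every probe. The largest difference below mock was that of *COX8A*, a subunit of cytochrome c oxidase, with a relative signal of 91.2 in mock and 5.98 after *miR-139-3p* (log2 difference -3.93, SD 0.28, n = 2 probes). *THRA*, a thyroid hormone receptor, had 5.49 in mock and 0.6803 after *miR-139-3p* (-3.01, SD 0.46). *RAB37*, a small GTPase of secretory vesicles, had 2.12 in mock and 0.289 after *miR-139-3p* (-2.88, SD 0.56). After *miR-139-5p*, *COX8A* was at -0.24 and *RAB37* at 0.54, while *THRA* was lower there too, at -1.23. The other 12 of the 15 largest were *WNT7B*, *TUBA4A*, *TOMM34*, *NRP2*, *IMPA2*, *PIGS*, *MGLL*, *ALDH3A1*, *TUBB*, *NPR3*, *BRMS1* and *RFC3*, between -2.78 and -2.21. Among them, *MGLL* encodes monoacylglycerol lipase, *NPR3* the clearance receptor of natriuretic peptides, *PIGS* a subunit of the GPI transamidase and *RFC3* a subunit of the clamp loader of DNA replication. *WNT7B* and *ALDH3A1* were also lower after *miR-139-5p*, at -2.24 and -1.40.

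In the other direction, the largest difference among genes with several probes was that of *TP53INP1*, a stress protein induced by p53, with 0.292 in mock and 2.78 after *miR-139-3p* (3.25, SD 0.06, n = 2 probes). Its difference after *miR-139-5p* was -1.51, but over another set of its probes. *SELENOP*, a secreted selenium carrier, had 0.116 in mock and 0.896 after *miR-139-3p* (2.95, SD 0.26, 1.07 with normexp). *MDM2*, the ubiquitin ligase of p53, had 0.949 in mock and 5.54 after *miR-139-3p* (2.54, SD 0.23). *FAS*, a death receptor, had 0.625 in mock and 3.23 after *miR-139-3p* (2.37, SD 0.39). Of the 15 largest, *TP53INP1*, *MDM2* and *FAS* are in the list of p53 targets described below. *FBXW10B*, *ZGLP1*, *KCNH2*, *C8G*, *IL32*, *GP1BB*, *SLC2A3*, *FAM200B*, *PAPLN* and *VWCE* lay between 2.10 and 2.55. The probes of 4 of them differed more, with an SD of 1.31 for *KCNH2*, whose probes lay at 1.38 and 3.24, 0.81 for *PAPLN*, 0.81 for *VWCE* and 0.69 for *C8G*. With normexp *KCNH2* was at 0.87, *FAM200B* at 0.62 and *SLC2A3* at 0.75. In the same range lay 1 gene of a testis family whose near-identical copies share probes. *PAPLN*, an extracellular matrix protein, was also higher after *miR-139-5p*, at 1.26. *SLC2A3*, the glucose transporter GLUT3, was at 1.27 there, but over another set of its probes.

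The genes were then read by function, in 64 lists. Of these, 7 had a median at or below -1 and 2 at or above 1, while 43 were within 0.5 of 0. With normexp 4 were at or below -1 and 0 at or above 1, and with the percentile over detected probes 3 and 2. Without scaling and with E1A scaling 11 were at or below -1 and 1 at or above 1. Counts of lower and higher members below are to be read against the 13.1% and 8.77% of all genes. Where a count of at least 5 members moved by over 1.5 times, its range over the alternatives is given. After *miR-139-5p*, 0 of the 64 medians lay past 0.5 in either direction. The 7 lists with the lowest medians cover DNA replication, DNA repair, cell division, cyclins and tubulins, and the 2 with the highest are p53 targets and cholesterol synthesis.

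**Figure D2:**
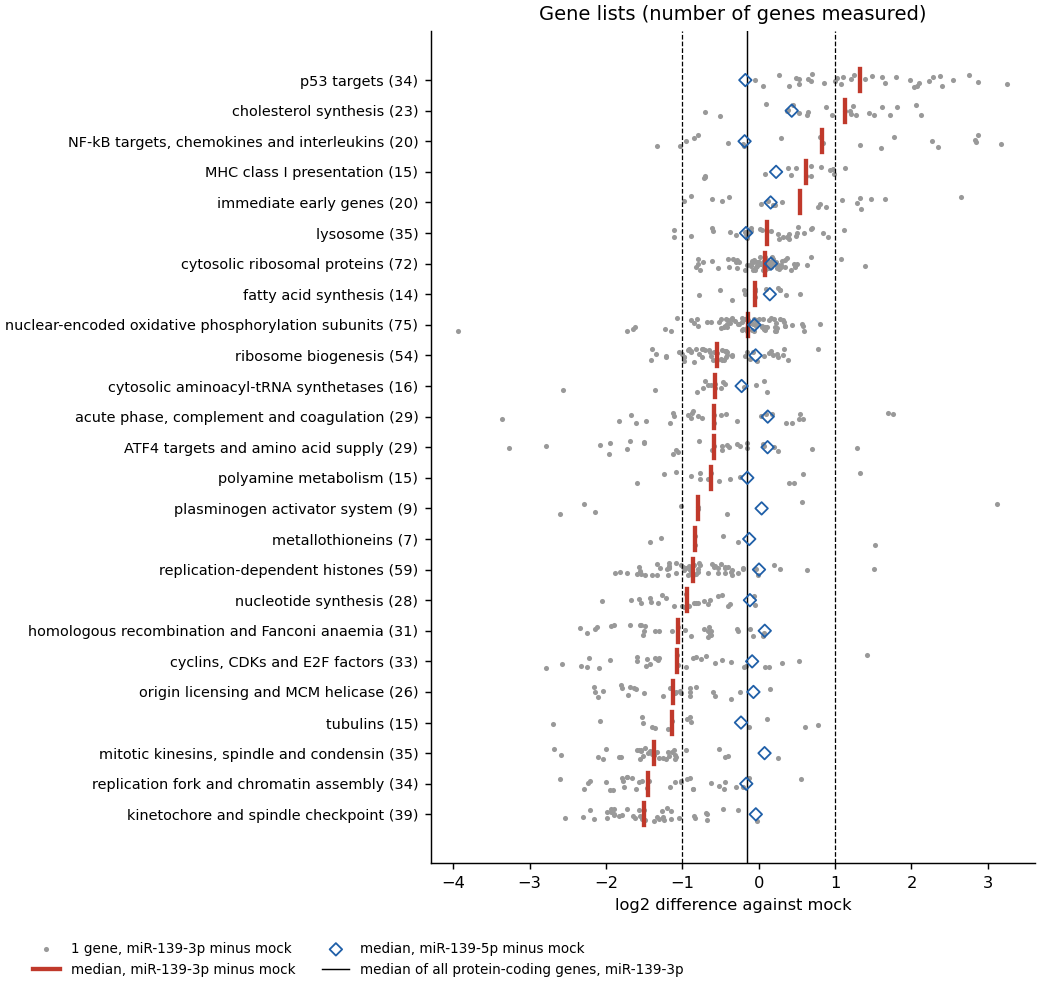
Log2 differences of the members of 25 of the 64 lists, with the number of genes measured in parentheses. Grey points are single genes and red bars list medians after *miR-139-3p*, blue diamonds are list medians after *miR-139-5p*, the solid line is the median of all protein-coding genes (-0.15) and dashed lines mark 2-fold. The red bars run from -1.50 for the kinetochore to 1.32 for p53 targets, and the blue diamonds all lie within 0.5 of 0.

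DNA replication begins when origins are licensed by loading of the MCM helicase. Of 26 licensing and helicase genes measured, 17 were lower and 0 higher, with a median of -1.13 (-0.07 after *miR-139-5p*). Against the 13.1% of all genes that were lower, this is well over the background share. *CDC45*, which binds MCM and GINS in the active helicase, had a relative signal of 17.6 in mock and 4.099 after *miR-139-3p* (-2.10). *GINS4*, of the GINS complex, had 11.6 in mock and 2.59 after *miR-139-3p* (-2.16). *MCM5*, a subunit of the ring, had 11.2 in mock and 3.24 after *miR-139-3p* (-1.79). The licensing factors *CDC6* at -1.09 (-0.32 with normexp) and *CDT1* at -1.25 lay nearer to 0, *CLSPN* and *TICRR*, which act in checkpoint signalling and origin firing, were at -2.14 (-0.70 with normexp) and -2.04, and *ORC4*, of the origin recognition complex, was at 0.15.

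At the replication fork, 22 of 34 genes were lower and 0 higher (median -1.45). *ASF1B*, a histone chaperone, had 6.92 in mock and 1.14 after *miR-139-3p* (-2.61), while its paralogue *ASF1A* had 0.138 in mock and 0.202 after *miR-139-3p* (0.55). The pair lay on opposite sides of mock, though *ASF1A* was dim and came down to 0.18 over the alternatives. *TOP2A*, the topoisomerase that untangles chromosomes, was at -2.29, *UHRF1*, which reads hemimethylated DNA, at -2.23 and *RFC3* at -2.21 (SD 0.37, n = 2 probes). *POLE2*, of DNA polymerase epsilon, was at -1.79. *PCNA*, the sliding clamp and itself a p53 target, differed little, with 38.8 in mock and 28.6 after *miR-139-3p* (-0.44).

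The supply of nucleotides and the repair of broken DNA had medians on the same side. For nucleotide synthesis, 11 of 28 genes were lower and 0 higher (median -0.94, 9 to 19 lower over the alternatives), led by *IMPDH1*, of guanine nucleotide synthesis, at -2.06, *DTYMK* at -1.67, *TK1* at -1.57 and *RRM2*, of ribonucleotide reductase, at -1.55. Thymidylate synthase, *TYMS*, was at -0.48. In homologous recombination and the Fanconi anaemia pathway 16 of 31 were lower and 0 higher (median -1.06), while with normexp 11 were lower and the median was -0.71. *BRCA1* had 4.29 in mock and 1.13 after *miR-139-3p* (-1.93), and its partner *BARD1* had 2.495 in mock and 0.492 after *miR-139-3p* (-2.34). *BLM*, a helicase, was at -2.25, *EXO1*, which resects DNA ends, at -2.15, *RAD51AP1* at -2.11 (-0.71 with normexp) and *FANCD2* at -1.54 (-0.67 with normexp). *PALB2* at 0.06 and *XRCC2* at 0.06 of the same pathway were near mock.

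The kinetochore joins chromosomes to spindle microtubules, and the spindle checkpoint, in which *TRIP13* acts, delays anaphase until all are joined. This list had the lowest median of the 64, at -1.50 (-0.04 after *miR-139-5p*). Of 39 genes, 31 were lower, 0 were higher and 39 were below 0. *CDC20*, the activator of the anaphase-promoting complex, had 8.14 in mock and 1.402 after *miR-139-3p* (-2.54). *SKA1*, of a microtubule-binding complex of the kinetochore, had 1.53 in mock and 0.312 after *miR-139-3p* (-2.30). *HJURP*, the chaperone of the centromeric histone, had 39.7 in mock and 8.93 after *miR-139-3p* (-2.15). *SGO1*, which protects cohesion at the centromere, was at -2.20 (SD 0.69, -0.90 with normexp). The checkpoint and kinetochore genes *BUB1* at -1.50, *MAD2L1* at -1.62 and *NDC80* at -1.50 lay near the median.

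Mitotic kinesins, spindle and condensin genes gave 30 lower and 0 higher of 35, with a median of -1.37. *KIF2C*, which depolymerizes microtubules at the centromere, had 16.5 in mock and 2.74 after *miR-139-3p* (-2.59). *KIF4A* at -2.68, *KIFC1* at -2.11, *KIF20A* at -2.04, *KIF11* at -1.82 and *TPX2* at -1.45 followed. The condensin subunit *NCAPH*, dim at 0.123 in mock, was at 0.25 (-0.18 to 0.39 over the alternatives). Tubulins, the subunits of microtubules, had a median of -1.13, with 8 of 15 lower (5 to 11 over the alternatives). *TUBA4A* had 34.1 in mock and 5.25 after *miR-139-3p* (-2.70, SD 0.12), *TUBA1A* was at -2.08, *TUBA1B* at -1.53 and *TUBA1C* at -1.52 (SD 0.98, -0.83 with the brightest probe). Tubulin genes are close paralogues whose transcripts may share probes. *TUBA3D* was at 0.61. The 2 probes of *TUBB8* lay on opposite sides, at -0.81 and 2.37 (mean 0.78, SD 2.25).

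Cyclins, cyclin-dependent kinases and E2F factors drive the cycle, and 18 of 33 were lower and 1 higher (median -1.08), while with normexp 11 were lower and the median was -0.74. *E2F1*, an activator of S phase genes, had 3.904 in mock and 0.837 after *miR-139-3p* (-2.22). *E2F2* had 7.58 in mock and 1.26 after *miR-139-3p* (-2.58). *FOXM1*, a factor of G2 and M phase genes, had 10.6 in mock and 2.23 after *miR-139-3p* (-2.25). The repressor *E2F8* was at -2.78 (-0.74 with normexp) and its relative *E2F7*, a p53 target, at 0.52. *CCNF* was at -2.33 (-0.49 with normexp), *CDK1* at -1.33, *CCNE2* at -0.82 and *CCND1*, the D-type cyclin, at -0.17. The 1 member that was higher was the G1 kinase *CDK6*, with 7.96 in mock and 21.2 after *miR-139-3p* (1.41). Replication-dependent histones, which are made in S phase, gave 21 lower and 1 higher of 59 (median -0.86, 17 to 34 lower over the alternatives), with *H2AC16* at -1.88 (-0.61 with normexp), *H3C15* at -1.81 and *H1-3* at -1.59. Histone genes of one type are nearly identical, so their probes may not tell them apart.

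**Figure D3:**
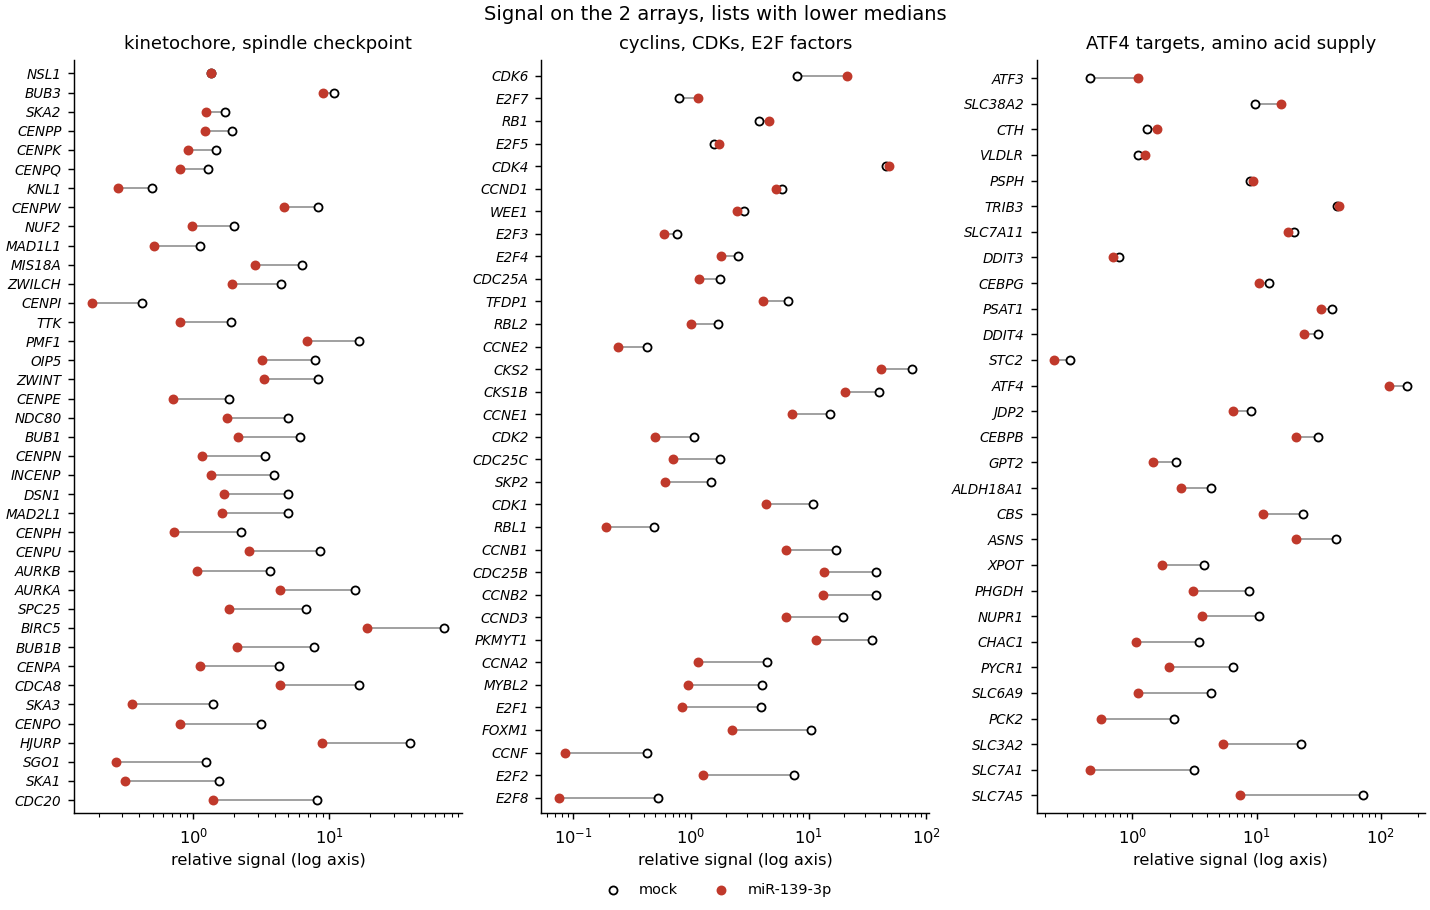
Relative signal (log axis, multiples of the array's 75th percentile) of every measured member of 3 lists, with mock as open and *miR-139-3p* as filled circles, 1 array each. Genes are ordered by their difference, and signals of different genes are not comparable. In the kinetochore list all 39 filled circles lie left of the open ones, as do 28 of 33 cyclin and E2F genes and 23 of 29 ATF4 genes.

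CDK inhibitors stop the kinases of the cycle, and of 5 measured 2 were higher and 1 lower (median 0.45). *CDKN1A*, which encodes p21, had 0.557 in mock and 1.71 after *miR-139-3p* (1.62, 0.94 with normexp), and -0.97 after *miR-139-5p*. *CDKN1C* had 1.31 in mock and 4.14 after *miR-139-3p* (1.66). *CDKN2C*, an inhibitor of CDK4 and CDK6, had 4.89 in mock and 1.301 after *miR-139-3p* (-1.91). *CDKN1B*, encoding p27, was at 0.45 and *CDKN2D* at 0.08.

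The protein p53 is a transcription factor that is stabilized by DNA damage and other stress and induces genes of cell cycle arrest, repair and apoptosis. Of 34 p53 targets measured, 22 were higher and 0 lower, against 8.77% higher among all genes, with a median of 1.32 (-0.18 after *miR-139-5p*). Over the alternatives of the processing the median ran from 0.94 to 1.46. *SESN1*, a sestrin that restrains mTORC1, had 0.329 in mock and 2.41 after *miR-139-3p* (2.87). *BTG2*, an antiproliferative gene, had 2.98 in mock and 20.03 after *miR-139-3p* (2.75). *BBC3*, encoding the BH3 protein PUMA, had 5.13 in mock and 22.1 after *miR-139-3p* (2.10). *ZMAT3* was at 2.41, *GADD45A* at 1.79 and *GDF15*, a secreted stress cytokine, at 1.21. *BBC3*, *ZMAT3*, *GADD45A* and *GDF15* were named outside the rule for members, without values under the alternatives. The pore-forming protein gene *BAX* differed least, with 7.65 in mock and 7.397 after *miR-139-3p* (-0.05), and its 2 probes lay on opposite sides of mock at -0.66 and 0.56. The list does not hold every known p53 target: *PCNA* and *E2F7*, counted in other lists, were at -0.44 and 0.52.

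**Figure D4:**
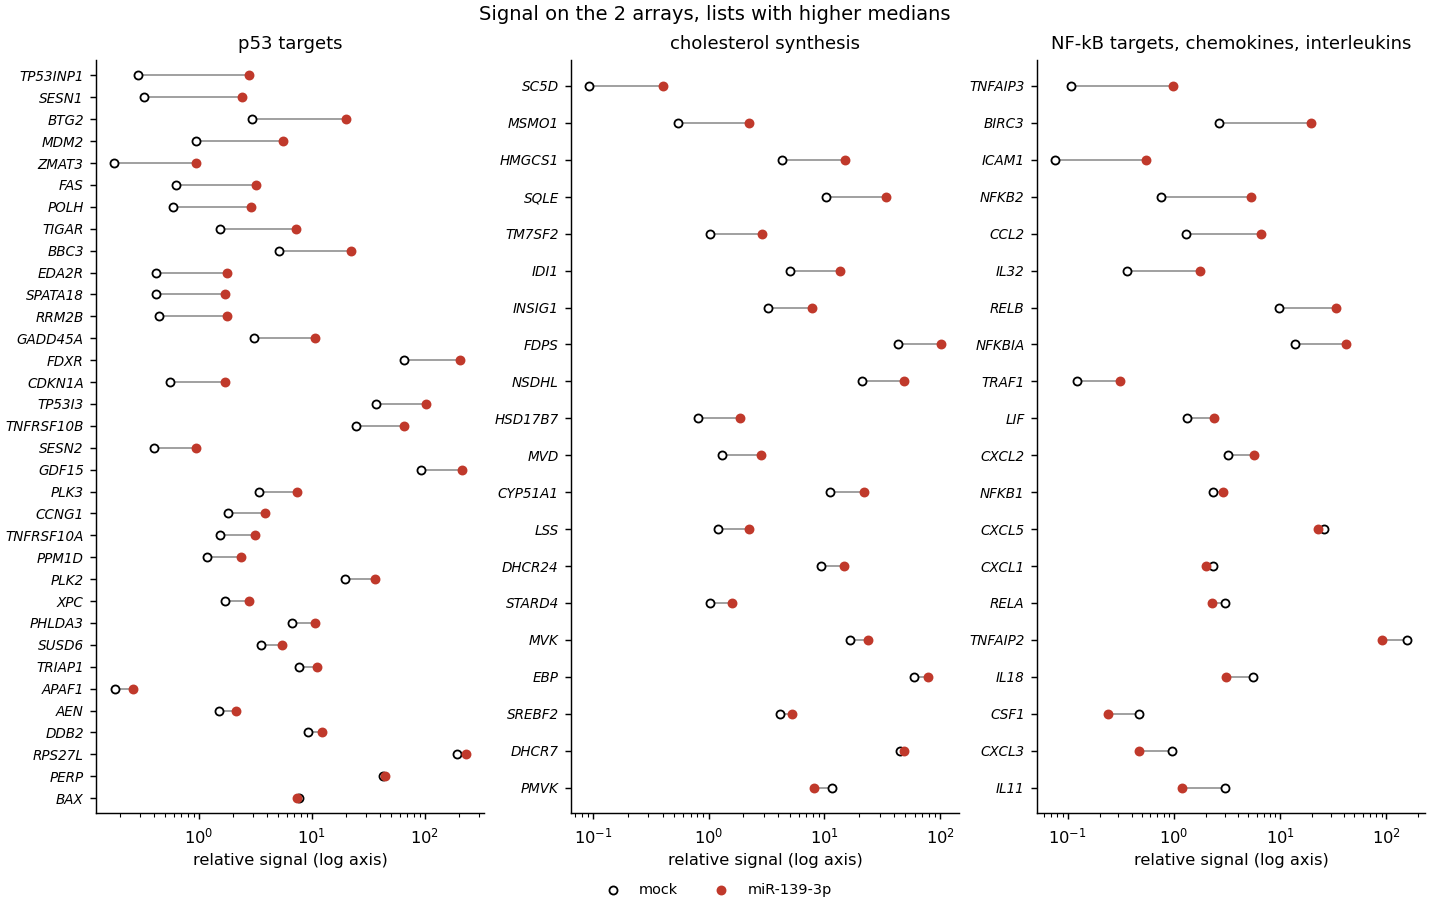
Relative signal (log axis, multiples of the array's 75th percentile) of measured members of 3 lists, with mock as open and *miR-139-3p* as filled circles, 1 array each. Genes are ordered by their difference, and signals of different genes are not comparable. The filled circles lie right of the open ones for all p53 targets but *BAX*, whose probes disagree, and for all cholesterol genes plotted but *PMVK*, while the NF-kB list goes both ways.

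The genes of cell death lay on both sides of mock. In the BCL2 family, the median of 15 genes was 0.15, with *BIK* at 1.81 (0.90 with normexp) and *BAD* at -2.03, both BH3 proteins that promote apoptosis, on opposite sides, and the protective *MCL1* and *BCL2L1* at 0.38 and -0.13. The list of this family does not hold *BBC3*, which was higher and is counted among the p53 targets. Among TNF ligands and receptors 6 of 20 were higher and 1 lower, with 4 to 12 higher over the alternatives and a median of 0.06, which was 0.58 with a stricter filter on dim probes. The death receptor *TNFRSF10B* (DR5) had 24.8 in mock and 65.1 after *miR-139-3p* (1.40). The decoy receptor *TNFRSF10C* had 0.111 in mock and 0.4603 after *miR-139-3p* (2.05, 0.65 with normexp). *FAS* and *TNFRSF10B* are p53 targets as well. *TNFRSF25* was at 1.79 and *TNFRSF11A*, the receptor RANK, at -1.38 (-0.28 with normexp).

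Among the stress programmes, ATF4 drives amino acid synthesis and uptake. Of 29 genes in this list, 12 were lower and 1 higher (median -0.59). The lower ones included amino acid transporters. *SLC7A5*, the large neutral amino acid transporter LAT1, had a relative signal of 71.4 in mock and 7.43 after *miR-139-3p* (-3.27). Its partner *SLC3A2* had 22.9 in mock and 5.41 after *miR-139-3p* (-2.08), and the cationic amino acid transporter *SLC7A1* had 3.16 in mock and 0.457 after *miR-139-3p* (-2.79). *PCK2* was at -1.96 and asparagine synthetase, *ASNS*, at -1.08 (-0.88 with the deposited values). *ATF3*, a stress factor, was the 1 higher member, with 0.456 in mock and 1.11 after *miR-139-3p* (1.29, SD 0.69, 0.81 with normexp), *SLC38A2* was at 0.69, and *DDIT3*, which encodes CHOP, was at -0.16.

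The next stress lists had medians nearer to 0, but for the metallothioneins. The unfolded protein response had a median of -0.44 over 25 genes, with *CANX* at -1.05 (-0.69 with normexp), *XBP1* at -0.74 and *HSPA5*, the chaperone BiP, at -0.07. Heat shock proteins and the chaperonin had -0.43 over 30, with *CCT3* at -1.33 and *HSPB8* at 1.25 (0.67 with normexp). The NRF2 targets, which handle oxidants and are constitutively active in A549 because the line lacks functional KEAP1, gave 8 lower and 0 higher of 28 (28.6% lower, median -0.50). *ALDH3A1* had 103 in mock and 19.9 after *miR-139-3p* (-2.36, SD 0.20, n = 2 probes) and *CYP4F11* had 0.745 in mock and 0.163 after *miR-139-3p* (-2.19, -0.81 with normexp), whereas the classical target *NQO1* was at 0.07 and *GCLM* at 0.86. Metallothioneins, which bind zinc, had a median of -0.84 over 7 (-0.37 without a filter on dim probes), from *MT1X* at -1.43 to the neuronal *MT3* at 1.53, and zinc transporters -0.43 over 18, which changed side to 0.05 without that filter.

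The glucose transporters *SLC2A1* and *SLC2A3* lay on opposite sides of mock. *SLC2A1*, the transporter GLUT1, had 13.98 in mock and 0.9503 after *miR-139-3p* (-3.88). *SLC2A3*, the transporter GLUT3, had 0.1699 in mock and 0.755 after *miR-139-3p* (2.15, SD 0.12, n = 2 probes, 0.75 with normexp). GLUT1 was thus at a small part of its mock signal while GLUT3 was above its own, although the array does not tell which transcript was the more abundant, and the close paralogue *SLC2A14* may share probes with *SLC2A3*. In the whole list of glycolysis and the hypoxia response 8 of 32 were lower and 4 higher (25% and 12.5%, against 13.1% and 8.77% of all genes, median -0.45). Over the alternatives 5 to 9 were lower. The hypoxia genes *EGLN3* and *NDRG1* were at -2.10 (-0.38 with normexp) and -1.62, hexokinase 2, *HK2*, at -1.67 (-0.23 with normexp), *PFKL* at 2.14 and *GAPDH* at -0.55. *CA9*, a carbonic anhydrase induced by hypoxia, was at least 2.69-fold lower, with 0.143 in mock and no signal well above background after *miR-139-3p*.

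Among the lists of protein synthesis, cytosolic ribosomal proteins had a median of 0.08 over 72 genes, which ran from -0.15 to 0.21 over the alternatives, with *RPL27A* at 1.39 (0.46 with normexp) at the upper end and *RPS28* at -0.82 at the lower. Ribosome biogenesis gave 6 lower and 0 higher of 54 (11.1% lower, against 13.1% of all genes, median -0.55, 5 to 17 lower over the alternatives), with *MRTO4* at -1.41, *BOP1* at -1.40 and *GRWD1* at -1.35, and *MYC*, which drives this programme, at -0.48. Cytosolic aminoacyl-tRNA synthetases, which charge tRNAs, had a median of -0.57 over 16. Within them *AARS1*, for alanine, had 6.18 in mock and 1.05 after *miR-139-3p* (-2.56) and *YARS1*, for tyrosine, was at -1.36, while *NARS1* and *RARS1* were at 0.11 and 0.07. The median for tRNA and rRNA methylation was -0.14 over 25, with *WDR4* lowest at -1.66 (-0.94 with normexp). For polyamine metabolism it was -0.62 over 15, with the catabolic enzyme *SAT1* higher at 1.33 and *ODC1*, which makes putrescine, at -0.77.

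In mitochondria, ribosomal proteins had a median of -0.38 over 76 genes, with 8 lower (10.5%, against 13.1% of all genes, and 5 to 17 over the alternatives). The nuclear-encoded subunits of oxidative phosphorylation had -0.14 over 75, close to the -0.15 of all genes, with 7 lower (9.33%, and 6 to 11 over the alternatives). *COX8A* stood far from the other subunits. The next in the list, *ATP5F1C* of the ATP synthase, had 14.9 in mock and 4.53 after *miR-139-3p* (-1.72), followed by *ATP5MC2* at -1.64. Protein import had a median of -0.47 over 29. The import factor *TOMM34* had 5.42 in mock and 0.849 after *miR-139-3p* (-2.67, SD 0.20), *GRPEL1* was at -1.99 and the pore *TOMM40* at -1.75. *MRPS16* was higher at 1.30, but was at 0.86 with outlier spots kept.

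The lists on protein turnover, RNA handling and chromatin had medians within 0.5 of 0. Proteasome subunits had -0.40 over 38, with 7 lower (18.4%, against 13.1% of all genes, and 1 to 11 over the alternatives), led by *PSME3* at -1.54. Lysosomal genes had 0.11 over 35, the V-type ATPase -0.12 over 18 and autophagy 0.28 over 34, where the receptor *OPTN* had 0.929 in mock and 2.61 after *miR-139-3p* (1.49). SR proteins and hnRNPs had -0.42 over 34. For the nuclear pore and transport the median was -0.44 over 45, with *NUP188* at -1.73 (-0.94 with normexp) and the importin *KPNA5* at 2.05 (0.50 with normexp). The microRNA machinery had 0.33 over 14, with *AGO4* at 1.63 (0.66 with normexp), *AGO2* at 0.13, *DICER1* at 0.76 and *DROSHA* at -0.42. Polycomb genes had -0.34 over 20, with *EZH2* at -0.80.

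Cholesterol synthesis runs from acetyl-CoA through mevalonate and is switched on by SREBP2 when membrane sterol is low. Of 23 genes of the pathway 12 were higher and 0 lower, with a median of 1.13 (0.83 to 1.26 over the alternatives). *HMGCS1*, which makes HMG-CoA, had 4.27 in mock and 15.04 after *miR-139-3p* (1.82). *SQLE*, squalene epoxidase, had 10.4 in mock and 34.01 after *miR-139-3p* (1.71), so early and late steps lay on the same side. *MSMO1* was at 2.06 and *SC5D* at 2.12 (0.61 with normexp). After *miR-139-5p* the list had a median of 0.43, with *HMGCS1* at 1.37 and *SQLE* at 1.23. Fatty acid synthesis had a median of -0.05 over 14, with *FASN* at 0.35 and *SCD* at -0.05.

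NF-kB is a family of dimers that induces cytokines and its own inhibitors. Of 20 NF-kB targets, chemokines and interleukins 9 were higher and 2 lower (median 0.82). The median fell to 0.42 with normexp background correction and to 0.11 without a filter on dim probes. *TNFAIP3*, the feedback inhibitor A20, had 0.108 in mock and 0.978 after *miR-139-3p* (3.18, 1.22 with normexp). *BIRC3*, encoding cIAP2, had 2.64 in mock and 19.4 after *miR-139-3p* (2.88). *NFKB2* had 0.7498 in mock and 5.33 after *miR-139-3p* (2.83). *ICAM1* was at 2.84 (0.80 with normexp) and the inhibitor *NFKBIA* at 1.60. *CXCL8* was at least 2.34-fold higher, with 0.1204 after *miR-139-3p* and no signal well above background in mock. *IL11* at -1.34 and *CXCL3* at -1.03 (-0.57 with normexp) lay the other way. After *miR-139-5p* the list had a median of -0.19, with 4 of 20 higher and 2 lower. There *TNFAIP3* was at 1.12, *BIRC3* at 1.48, *NFKB2* at 0.94 and *IL11* at 2.045. *ICAM1* was at -0.12 there, *NFKBIA* at 0.20 and *CXCL3* at -1.37.

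Other immune lists were mixed. Interferon-stimulated genes and RNA sensors had a median of 0.14 over 24. The sensor of double-stranded RNA *IFIH1* had 0.181 in mock and 0.847 after *miR-139-3p* (2.23, 0.97 with normexp) and *TLR3* was at 1.29 (0.33 with normexp), whereas *OAS1* was at -1.53 (-0.72 with normexp) and *IFIT1* at -0.11. For MHC class I presentation the median was 0.62 over 15 (0.33 with normexp), with *TAP1* at 0.98, but *B2M*, the invariant light chain, at -0.72. Acute phase, complement and coagulation genes gave 8 lower and 2 higher of 29 (27.6% lower, 4 to 13 genes over the alternatives, median -0.58, and -0.13 with normexp background correction). *LCN2*, a siderophore-binding protein, had 1.203 in mock and 0.117 after *miR-139-3p* (-3.36, -1.37 with normexp), and was at -3.21 after *miR-139-5p*. Fibrinogen chains *FGA* and *FGB* were at -1.83 (-0.78 with normexp) and -1.67. In eicosanoid synthesis 6 of 15 were lower (3 to 9 over the alternatives) and 3 higher. Here the phospholipase *PLA2G4C* had 0.201 in mock and 3.05 after *miR-139-3p* (3.93), *PLA2G4A* had 5.43 in mock and 1.48 after *miR-139-3p* (-1.88) and prostaglandin E synthase, *PTGES*, was at -2.18 (-0.75 with normexp).

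Immediate early genes answer growth signals within minutes. Of 20, 7 were higher and 0 lower (median 0.54), but with normexp 1 was higher and the median was 0.31. *EGR1* had 0.186 in mock and 1.17 after *miR-139-3p* (2.65) and was as far above mock after *miR-139-5p*, at 2.60. *NR4A2* was at 1.66 (SD 0.96, 0.78 with normexp), *JUN* at 1.096 (0.78 with normexp) and *FOS* at 0.19. For EGFR ligands and MAPK feedback the median was 0.03 over 23, with *DUSP6* at 1.47, *AREG* at 1.18 (0.90 with normexp) and *EGFR* at -0.14. YAP and TEAD targets had 0.04 over 18, with *ANKRD1* at 2.41 (0.68 with normexp), *CCN2* at 1.47 (0.84 with normexp) and *CCN1* at 0.30.

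In the IGF axis, whose binding proteins hold insulin-like growth factors in the extracellular space, 5 of 15 were lower and 0 higher. *IGFBP1* had 2.84 in mock and 0.179 after *miR-139-3p* (-3.99). *IGFBP3* had 10.98 in mock and 1.64 after *miR-139-3p* (-2.74). *IGFBP4* was at -2.50 and *IGFBP6* at -1.997, so these binding proteins lay far below the list median of -0.44, which was -0.04 without a filter on dim probes. Among TGF-beta, activin and BMP genes 6 of 30 were lower and 0 higher (20% lower, against 13.1% of all genes, median -0.20), with the activin subunit *INHBB* at -2.41, the BMP antagonist *GREM1* at -2.29 (-0.68 with normexp) and *BMP6* at -2.23. *BMP8B*, which the list does not hold and which was added after its value was seen, had 18.1 in mock and 75.7 after *miR-139-3p* (2.06). The WNT list gave 10 lower and 2 higher of 32 (31.2% lower, 4 to 14 genes over the alternatives, median -0.29). *WNT7B* had 1.06 in mock and 0.154 after *miR-139-3p* (-2.78, SD 0.34, n = 2 probes), *AXIN2*, a feedback target, was at -1.26 (SD 0.79, -0.49 with normexp), and *WNT11* was at 2.42 (0.77 with normexp). After *miR-139-5p* *WNT7B* was at -2.24 and *AXIN2* at -1.49. In the Notch pathway the median was -0.37 over 19, with the receptor *NOTCH3* at -2.61 and the target *HES1* at 1.64 (0.51 with normexp).

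At the cell surface and in the matrix the members of a list often lay on both sides. In the plasminogen activator system 4 of 9 were lower and 1 higher (median -0.79). *PLAT*, the tissue-type activator, had 0.387 in mock and 0.0794 after *miR-139-3p* (-2.29, -0.43 with normexp). *SERPINE2*, a serine protease inhibitor, had 2.21 in mock and 0.365 after *miR-139-3p* (-2.60). *ANXA2*, a cell surface receptor, was at 3.12 on 1 probe and at 1.40 with outlier spots kept. Among ephrins, Eph receptors and semaphorins (median -0.17 over 33), the neuropilins *NRP2* and *NRP1* were at -2.62 (-0.76 with normexp) and -1.40 and the plexins *PLXNB3* and *PLXNA3* at 2.75 and 1.72. The ADAM, ADAMTS, MMP and TIMP list had a median of 0.29 over 26, with *TIMP4* at -2.11 and *ADAMTS9* at -1.98 (-0.52 with normexp). For integrins and laminins it was 0.12 over 25 (-0.23 with a stricter filter on dim probes), with *ITGA2* at 1.87 (0.44 with normexp) and *ITGB2* at -2.13 (-0.38 with normexp), and for collagens -0.09 over 22. After *miR-139-5p* *ITGA2* was at 0.28 and *ITGB2* at -1.86.

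Markers of epithelial and mesenchymal state lay on both sides of mock. Epithelial junction genes had a median of -0.04 over 25, with *CDH1* at 0.36, *EPCAM* at 0.97 and the gap junction protein *GJB2* at 1.97 (0.59 with normexp), but the claudins *CLDN2* and *CLDN4* at -2.46 and -1.71. Mesenchymal markers had -0.48 over 13. The repressor *SNAI1* had 1.84 in mock and 0.438 after *miR-139-3p* (-2.07), *VIM* was at -0.24 and *ACTA2* at 1.83. Fibronectin, *FN1*, was at least 4.97-fold lower, with 0.265 in mock and no signal well above background after *miR-139-3p*. Keratins had 0.10 over 20 and -0.75 with a stricter filter on dim probes. Among them *KRT4* had 6.14 in mock and 0.305 after *miR-139-3p* (-4.33) and *KRT8* and *KRT18*, the keratins of simple epithelium, were at -0.74 and -0.84. After *miR-139-5p* *KRT4* was at -1.45, *KRT8* at -0.85 and *KRT18* at -0.77. For the actin cytoskeleton the median was -0.28 over 27, with *TAGLN2* at -2.03 and *ACTB* at -0.11, and for RhoGEFs and RhoGAPs -0.13 over 45. In the lung identity list (median -0.41 over 22), the mucin *MUC5B* had 1.73 in mock and 0.311 after *miR-139-3p* (-2.47) and *LAMP3* had 0.0583 in mock and 0.323 after *miR-139-3p* (2.47, 0.57 with normexp). Cytochromes P450, UGTs and aldehyde dehydrogenases had 0.04 over 40, and phosphodiesterases and adenylyl cyclases -0.40 over 23 (-0.06 without a filter on dim probes), with *PDE2A*, whose intron holds *MIR139*, at 0.67.

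Noncoding RNAs lay above coding genes as classes. Over 1111 lncRNAs the median difference was 0.47 and 24.4% were higher, and over the 222 with a mean relative signal of at least 1 it was 0.33, against -0.25 for protein-coding genes in that range. *PINCR* and *PURPL* are both named for their link to p53. *PINCR* had a relative signal of 0.0869 in mock and 1.13 after *miR-139-3p* (3.71, 1.34 with normexp). *PURPL* had 0.1597 in mock and 1.38 after *miR-139-3p* (3.11, 1.46 with normexp). The nuclear *NEAT1* was at 1.76 (SD 0.69, 0.99 with the brightest probe) and *MALAT1* at 1.03 (SD 0.57, 0.81 with E1A scaling), while the snoRNA host genes *GAS5* and *DANCR* were at -0.46 and -1.26. In the list of lncRNAs and snoRNA hosts the median was 0.23 over 37.

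The scaRNAs, which guide modification of spliceosomal RNAs in Cajal bodies, lay furthest above mock. Of 20 measured, 16 were higher and 20 above 0, with a median of 1.68 (0.76 after *miR-139-5p*). *SCARNA20* had 1.06 in mock and 14.4 after *miR-139-3p* (3.77) and *SCARNA16* had 6.45 in mock and 37.3 after *miR-139-3p* (2.53). Of 218 snoRNAs, 75 were higher and 1 lower (median 0.66), and for 15 small nuclear and related RNAs the median was 0.70. These RNAs carry no long poly(A) tail, many snoRNA probes may also read the intron of the host transcript, and the part of labelling or RNA preparation in the shift was not tested.

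**Figure D5:**
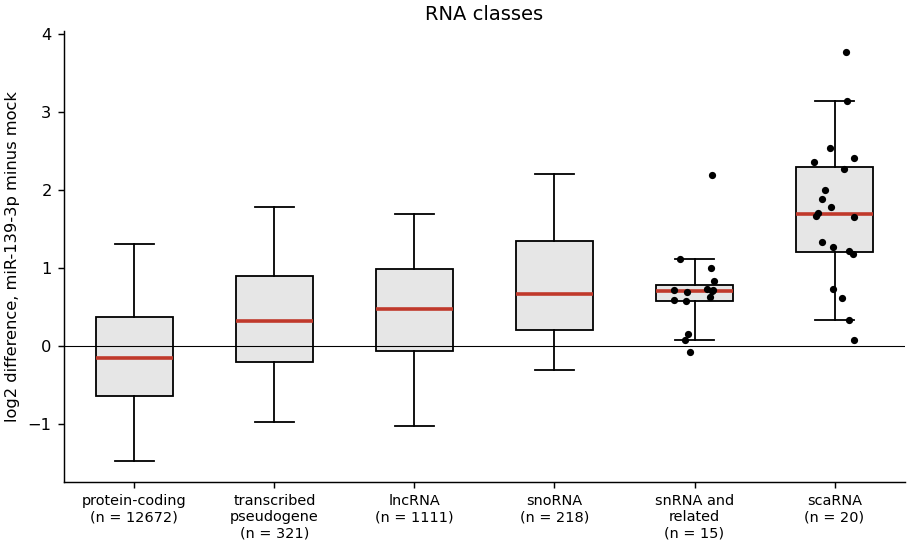
Log2 difference, *miR-139-3p* minus mock, by RNA class. Boxes span the middle 50% of the genes, red lines are medians, whiskers run from the 5th to the 95th percentile, and points are single genes in the 2 smallest classes. The medians run from -0.15 for protein-coding genes to 0.66 for snoRNAs, 0.70 for small nuclear and related RNAs and 1.68 for scaRNAs.

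A reading that used no functional list grouped protein-coding genes by the letters that open their symbol, which gave 158 families of at least 10 measured genes. The lowest median was that of the *GALNT* enzymes, which start O-linked glycosylation, at -0.86, with 4 of 12 lower and *GALNT7* at -1.28. Next lowest were symbols opening with F (clotting factors among them, -0.81), H (histones, -0.79), *CDC* (-0.77), *AKR* (aldo-keto reductases, -0.72), *FKBP* (immunophilins, -0.64), *THAP* (-0.63) and *NUP* (nucleoporins, -0.62). In the *AKR* family *AKR1B1*, aldose reductase, was at -1.45, and in *FKBP* the glucocorticoid-responsive *FKBP5* was at -1.97. The highest medians were those of *KRTAP* (hair keratin-associated proteins, 0.87), *GOLGA* (0.62), *TNFRSF* and *CYP* (both 0.58), *SPATA* (0.58), *OR* (olfactory receptors, 0.56), *HLA* (0.53) and *KDM* (histone demethylases, 0.50). The *KRTAP*, *OR* and *SPATA* families were dim, with a median relative signal in mock of 0.268, 0.124 and 0.2196, in the range where all genes drifted upwards, and the part of that drift was not tested. Moreover, *KRTAP*, *GOLGA* and *OR* genes have near-identical copies that may share probes. Each of these 16 medians kept its sign under all alternatives, but those above 0 came nearer to it. Their lowest values were 0.35 for *KRTAP*, 0.22 for *GOLGA*, 0.36 for *TNFRSF* and 0.16 for *CYP*. For *SPATA* the lowest was 0.16, for *OR* 0.155, for *HLA* 0.30 and for *KDM* 0.16.

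Promoters were read for short motifs of known factors, in 250 bases before to 50 after each gene start in RefSeq (GRCh38.p14), on both strands. These were E2F (TTTCCCGC or TTTGGCGC), the cell cycle homology region CHR (TTTGAA), NF-Y (CCAAT), ATF4 (TGATGNAA) and AP-1 (TGANTCA). No motif of one factor lies within that of another. A match is a description of letters and not a binding site. The E2F motif stood in 2.31% of all 27305 promoters, in 3.54% of the 10355 promoters of protein-coding genes measured, in 5.44% of 1342 promoters of lower genes and in 1.88% of 852 of higher genes. It was in 10 of 22 promoters of the licensing list and 8 of 29 of the replication fork list, and in 4 of 28 of the p53 list, whose median lay above mock. The CHR motif was in 15.4% of all promoters, 9.74% of those of genes measured, 12.97% of those of lower genes and 11.3% of those of higher genes. It was in 15 of 32 promoters of the kinetochore list and 23 of 32 of the kinesin and spindle list, against 1 of 28 of the p53 list. NF-Y letters were common, at 35.7% of all promoters, and stood in 15 of 18 cholesterol promoters and 14 of 28 of the p53 list. Among the lists below mock they were in 14 of 22 licensing, 18 of 29 fork, 20 of 32 kinetochore, 21 of 32 kinesin and spindle and 12 of 24 ATF4 promoters. ATF4 letters were in 5 of 24 promoters of the ATF4 list against 3.67% of all and 1.69% of those of genes measured. AP-1 letters were in 7.76% of all promoters, 4.703% of those of genes measured, 3.80% of those of lower genes and 7.51% of those of higher genes.

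Motifs also stand in genes that were higher, E2F in *MDM2*, CHR in *EGR1* and ATF4 in *ATF3*, whose windows are not shown. The windows of 30 bases below show the motif, in capitals, in genes that carry the results above, each read 5′ to 3′ on the strand of the gene. The first 3 hold the E2F motif in genes of the E2F programme that were lower, at chr20:33686387-33686416 on the minus strand for *E2F1*, chr17:40287875-40287904 on the plus strand for *CDC6* and chr13:33818083-33818112 on the plus strand for *RFC3*.
E2F1: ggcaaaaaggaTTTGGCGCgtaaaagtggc
CDC6: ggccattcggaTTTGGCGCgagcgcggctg
RFC3: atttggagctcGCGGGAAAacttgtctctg
The same 8 letters stand in *E2F1* and *CDC6*, whose differences were -2.22 and -1.09, and *RFC3* has the other form on the opposite strand. The next 3 hold the CHR motif in mitotic genes, at chr1:37692481-37692510 on the plus strand for *CDCA8*, a subunit of the chromosomal passenger complex (-1.93), chr10:92593090-92593119 on the plus strand for *KIF11* (-1.82) and chr4:120066807-120066836 on the minus strand for *MAD2L1* (-1.62).
CDCA8: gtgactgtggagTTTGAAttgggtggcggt
KIF11: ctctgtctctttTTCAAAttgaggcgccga
MAD2L1: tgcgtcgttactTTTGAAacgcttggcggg
The last ones show the ATF4 motif of *ASNS*, at chr7:97872458-97872487 on the minus strand, which was lower, and the NF-Y motif of *HMGCS1*, at chr5:43313550-43313579 on the minus strand, which was higher.
ASNS: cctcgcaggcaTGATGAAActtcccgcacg
HMGCS1: agtttccttttgATTGGtagaagccggact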

How the data were processed

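The authors deposited spot intensity values of the Agilent arrays, read by Agilent Feature Extraction 12.1.1.1, with the background subtracted and no normalization between arrays. A deposited series table gives log2 values by probe. These followed quantile-normalized log2 signals of the 3 arrays and served as an alternative. The dose of 10 nM is from the study's methods, and the time of harvest for the arrays was not given in the sources used here.

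From the spots other than controls, 60901 on each array, the log2 of the processed signal minus that of the 75th percentile of the array was computed. Outlier spots (614 in mock and 1526 after *miR-139-3p*) were dropped, and replicate spots of each of the 58201 probes were averaged. A probe counted as well above background where at least 50% of its spots did, and 0 spots were saturated. Probes were named through RefSeq accessions of GRCh38.p14 (31104 matched), while the array was designed on an older build. A gene above background on 1 array only was given a bound against the higher of its own dim signal and the lowest signal among probes above background. Over 300 probes with repeated spots the median SD between spots was 0.05 in mock and 0.06 after *miR-139-3p*. Precision is limited by the number of arrays.

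The members and the 64 lists were chosen with earlier results of these data known, and the lists were compiled from general knowledge of the genes. Genes were named by rule: the 15 largest differences on each side among genes with several probes, all past 2-fold the same way, and for each list up to 4 members furthest out on the side of its median, up to 2 on the other side, and a few core genes. A few further members were named after their values were seen. *CENPM* was not analysed here, a few other members of the lists enter the counts and medians but are not reported here by name, and seed matches in mRNAs were not analysed here.

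In all, 12 alternatives of background correction, scaling, filter on dim probes, probe choice, outlier spots, deposited values and threshold were tried. The steps were tested on simulated data. The normexp background correction ran in limma 3.58.1 under R 4.3.3 with an offset of 50, and all else in Python 3.11.15 with numpy 2.4.6, pandas 2.3.3 and matplotlib 3.10.9.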

Additional observations from a re-analysis of the deposited data

Results flagged for a closer look

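Probes for ERCC spike-in RNA, which no comparison used, passed the background flag more often after *miR-139-3p*: of 1176 such spots, the share well above background was 7.91% after *miR-139-3p*, 2.55% in mock and 1.70% after *miR-139-5p*. The median local background in signal units was 16 after *miR-139-3p*, 24 in mock and 23 after *miR-139-5p*, and its part in these shares was not tested.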

How the results depend on the processing

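Under the alternatives, 621 values of list medians moved by less than the SD between probes and 19 by more, and no list with a median past 0.5 changed its side. Of the 64 medians, 19 changed side in at least 1 alternative, 18 of them within 0.2 of 0 and the other that of the zinc transporters, from -0.43 to 0.05 without a filter on dim probes. The numbers of lower and higher genes were 848 and 286 with normexp background correction, 3982 and 2605 at a threshold of 0.5, and 611 and 420 at a threshold of 1.5. The number of higher genes was 2031 without a filter on dim probes and 458 with a stricter one. The share of higher genes among those past 2-fold was 40.1%, and became 25.2% with normexp, 52.6% with the 75th percentile over detected probes, 23.3% with E1A scaling, 24.3% without scaling, 51.6% without a filter and 27.3% with the stricter one. The median of all genes was -0.15, and under the scalings -0.02 over detected probes, -0.38 with E1A and -0.36 without scaling. Of the values of named genes under the alternatives, 4048 moved by less than the SD between probes, 417 moved by more and 3 turned a called sign. Of 293 named genes past 2-fold, 129 came under it in at least 1 alternative, 78 of them only with normexp. Of the genes described in the results, those nearest to 0 with normexp were *HK2* from -1.67 to -0.23, *TNFRSF11A* from -1.38 to -0.28, *CDC6* from -1.09 to -0.32, *TLR3* from 1.29 to 0.33, *EGLN3* from -2.10 to -0.38 and *ITGB2* from -2.13 to -0.38. *TUBB8* went from 0.78 to -0.81 and *BAX* from -0.05 to 0.56 with the brightest probe. Turning sign among called genes, *RPL32* went from 1.08 to -0.0038 with its brightest probe, and without a filter *TWIST1* went from -1.06 to 0.41 and *LAMA4* from 1.79 to -0.0506. The cause of these moves was not tested. No paired analysis was possible because each condition had 1 array. Without a replicate array, the spread between cultures is unknown, and dim genes carry the least certain values.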

Other observations

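Outside the 64 lists and the study's table, 1627 genes had a relative signal of at least 10 on the mock or the *miR-139-3p* array. The ones described here were chosen after their values were seen, each rests on 1 probe, and no test was made. Below mock, *S100P*, a calcium-binding protein, had a relative signal of 55.1 in mock and 3.999 after *miR-139-3p* (log2 difference -3.78). *ADGRG1*, an adhesion receptor, had 34.6 in mock and 3.72 after *miR-139-3p* (-3.22), and *SDC1*, the heparan sulphate proteoglycan syndecan-1, had 38.5 in mock and 5.699 after *miR-139-3p* (-2.75). *PCLAF*, which binds PCNA, was at -3.12, and *RPL22L1*, a paralogue of a ribosomal protein, at -2.83. After *miR-139-5p* these 5 genes lay between -0.40 and 0.15.

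Above mock, *BEX2* had 1.74 in mock and 17.3 after *miR-139-3p* (3.32). *APOE*, the apolipoprotein of cholesterol transport, had 9.17 in mock and 52.2 after *miR-139-3p* (2.51), and -0.76 after *miR-139-5p*. *SULF2*, which removes sulphate from heparan sulphate, had 5.52 in mock and 33.6 after *miR-139-3p* (2.61), so it and *SDC1* lay on opposite sides. The receptor tyrosine kinase *LTK* had 1.63 in mock and 13.98 after *miR-139-3p* (3.10) and was also higher after *miR-139-5p*, at 2.21. *SLC2A14*, a close paralogue of *SLC2A3* whose transcripts may share probes with it, was at 2.55 and at 1.95 after *miR-139-5p*.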
